A study of Mus musculus with 3 samples.

Results

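The endothelial marker genes described here are 10 genes that endothelial cells, the cells lining blood vessels, use for growth factor reception, for adhesion to one another and for their identity. They are Kdr, Flt1, Tek, Tie1, Cdh5, Cldn5, Esam, Pecam1, Plvap and Sox17. They were taken by gene symbol from a table of two-colour array ratios, as probes annotated with 1 symbol that had a value on all 3 arrays. Each gene had 1 probe, so the 10 genes are 10 probes of the 19660 gene probes, and 10 of the 14047 genes, with values on all 3 arrays. No measured value entered this choice, although it was made with earlier results of these data known.

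The samples were normal CD1 mouse embryos, pooled over both sexes. Each array set microdissected metanephroi of 11.5 days post coitum (dpc), the early kidney with the ureteric bud inside it, in channel 2 against metanephric mesenchyme of 10.5 dpc, the tissue from which the nephrons form, in channel 1. Amplified RNA was labelled with amino allyl dyes and hybridised to a mouse oligonucleotide array of the Compugen set, without a common reference. Arrays 1 and 2 carried the red/green dye order and array 3 the opposite one, green/red. The labels leave unsaid whether the arrays hold separate dissections, so the p-values cover the scatter of these 3 arrays alone, and that scatter may be technical.

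Every value is a log2 ratio of the 2 channels of 1 array, where 0 means equal signal. The labels do not settle which stage is the numerator. Negative and positive ratios thus mean more RNA at opposite stages, and no stage is assigned to either sign. Whether array 3 was turned to the direction of the others is not stated either. It is used as deposited, and values of arrays 1 and 2, which share a dye order, are also given apart. Spot intensities were not used here, so how far a gene lay above background is unknown, and the presence of endothelial or kidney cells cannot be checked from levels. In such bulk tissue, fewer endothelial cells and less RNA per endothelial cell cannot be told apart.

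Vessels reach the early kidney as endothelial cells and their precursors that gather around the forming nephrons. These cells carry receptors for vascular endothelial growth factor (VEGF), which drives their growth, and for the angiopoietins, which steady the vessel wall. Adjacent endothelial cells hold together through a cadherin, a claudin and immunoglobulin-type adhesion molecules. Transcription factors of the ETS and SOX families set their identity.

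All 10 genes had a negative mean ratio, as 50.2% of all genes did, and 8 of them were negative on all 3 arrays, where 22.5% of all genes were. The largest ratios in size belonged to Cldn5, the claudin of endothelial tight junctions, and Sox17, a transcription factor of arterial endothelium and also of endoderm, with mean log2 ratios of -1.12 ± 0.31 and -1.02 ± 0.31 (SD, n = 3). Pecam1, an adhesion molecule of endothelium and platelets, followed at -0.59 ± 0.13, and Plvap, which forms the diaphragms of endothelial pores, at -0.43 ± 0.03. Flt1, Tek, Kdr, Cdh5, Tie1 and Esam ran on towards 0, ending with Esam at -0.04 ± 0.27. None of the 10 passed an adjusted p of 0.05 by limma, as 0 of all 14047 genes did. The percentage called was 0% among genes and 0% among probes.

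**Figure D1:**
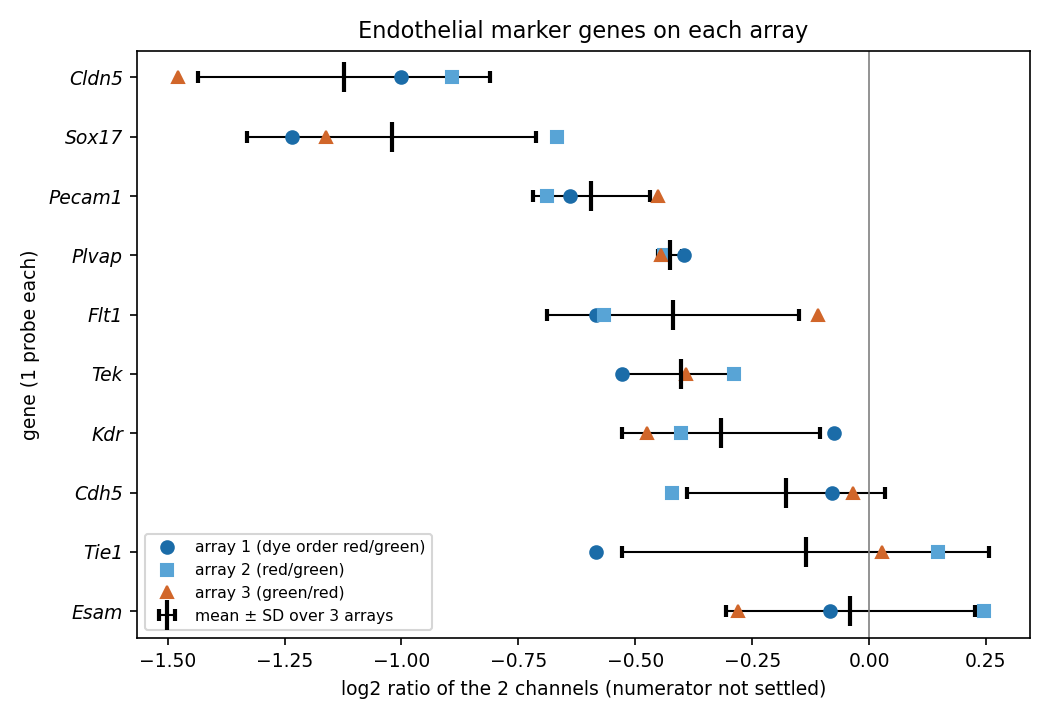
Log2 ratio of the 2 channels for each of the 10 endothelial marker genes on arrays 1, 2 and 3 (coloured points), with the mean and SD over the 3 arrays (black). Cldn5 and Sox17 lie furthest to the negative side on arrays 1 and 3, and Tie1 and Esam have arrays on both sides of 0.

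RefSeq promoters of build GRCm38.p6 were found for 5 members, Cldn5, Flt1, Kdr, Tek and Tie1. Among these 5, Cldn5 had the lowest mean ratio and Tie1 the highest, with arrays of both signs, and the sequence just before the start of each is shown for that reason. Both stretches are the 250 bases before the start, 5′ to 3′ along the gene. Cldn5 lies on the plus strand at chr16:18776597-18776846 and Tie1 on the minus strand at chr4:118489850-118490099. Capitals mark exact matches, on either strand, to the ETS core AGGAAG, to its variant with the letters CGGAAG, to the forkhead motif with the letters TGTTTAC, to the SOX motif with the letters ACAATGG, to the GATA motif with the letters AGATAA and to the E-box with the letters CATCTG. No match overlapped another.
Cldn5: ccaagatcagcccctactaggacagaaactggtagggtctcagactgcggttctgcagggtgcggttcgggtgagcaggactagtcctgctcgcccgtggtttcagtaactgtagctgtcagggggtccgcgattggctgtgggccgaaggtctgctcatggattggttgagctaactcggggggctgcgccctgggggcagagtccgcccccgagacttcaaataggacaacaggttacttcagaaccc
Tie1: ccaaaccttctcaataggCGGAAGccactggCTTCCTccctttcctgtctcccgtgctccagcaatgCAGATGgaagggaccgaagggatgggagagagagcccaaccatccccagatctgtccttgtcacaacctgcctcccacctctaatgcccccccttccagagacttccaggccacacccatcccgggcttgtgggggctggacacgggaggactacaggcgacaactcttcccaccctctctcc

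The Tie1 stretch held both ETS cores and 1 E-box, while the letters searched for were not in that of Cldn5. Flt1 had AGGAAG at 2 places of its 250 bases, shown here with 12 bases on either side, both on the minus strand of chromosome 5, at chr5:147726123-147726152 and chr5:147726047-147726076.
Flt1, distal: cgcccctccgggAGGAAGaagagggtaggt
Flt1, proximal: aggtgccggggtAGGAAGtgggctggggaa

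Kdr had 1 E-box match and Tek had none of the motifs. Over 32851 promoter stretches of this length, AGGAAG stood in 29.5%, CGGAAG in 13.6%, the E-box in 14.4%, AGATAA in 9.99%, TGTTTAC in 3.17% and ACAATGG in 3.02%. Among the 5 members AGGAAG stood in 2, CGGAAG in 1 and the E-box in 2. These are matches of letters in 1 window each and no measure of binding.

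The VEGF receptors had negative ratios on every array. Kdr (Entrez Gene 16542), the receptor through which VEGF drives endothelial growth, had log2 ratios of -0.08, -0.40 and -0.47 on arrays 1, 2 and 3. Array 1 thus lay close to equal signal and the other two together below it. Flt1 (14254), a receptor that binds VEGF tightly and also serves as a decoy for it, had -0.58, -0.57 and -0.11. Here arrays 1 and 2 lay together and array 3 was near 0, the reverse of the pattern of Kdr. Their means were -0.32 ± 0.21 for Kdr and -0.42 ± 0.27 for Flt1, with 95% intervals from -0.77 to 0.13 and from -0.91 to 0.07. Both intervals hold 0, and the adjusted p by limma was 0.365 for Kdr and 0.302 for Flt1. Within arrays, Kdr minus Flt1 averaged 0.10 ± 0.44, so that the receptors did not differ beyond the spread between arrays.

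Tek (21687), the receptor of the angiopoietins, had -0.53, -0.29 and -0.39. All arrays lay on one side, and the mean of -0.40 ± 0.12 came with an interval from -0.80 to -0.003. Its unadjusted p was 0.0490 and its adjusted p 0.253 by limma. Tie1 (21846), the partner of Tek that binds no angiopoietin tightly on its own, had -0.58, 0.15 and 0.03. Array 1 alone was negative, at a ratio of 0.667, the same value as Flt1 on that array. The mean of -0.14 ± 0.39 had the widest spread of the 10 genes, and its adjusted p by limma was 0.749. Without array 1 the mean of Tie1 was 0.09. Tie1 minus Tek averaged 0.27 ± 0.28 within arrays, with Tie1 higher on 2 of 3.

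Among the adhesion and junction genes, Cldn5 (12741) had log2 ratios of -1.0, -0.89 and -1.48 on arrays 1, 2 and 3. As plain ratios these are 0.500, 0.539 and 0.359, so every array lay far from equal signal. The mean corresponds to a 2.18-fold difference between the channels, with a 95% interval from -1.65 to -0.60 on the log2 scale. By limma its unadjusted p was 0.00439 and its adjusted p 0.157. Only 3.38% of all genes had a mean as low or lower.

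Pecam1 (18613) had -0.64, -0.69 and -0.45, all on one side and close together. Its interval ran from -0.996 to -0.19, and its unadjusted and adjusted p by limma were 0.0154 and 0.178. Cdh5 (12562), the cadherin of endothelial adherens junctions, had -0.08, -0.42 and -0.03, with only array 2 clearly away from 0. Esam (69524), an adhesion molecule of endothelial tight junctions and platelets, had -0.08, 0.24 and -0.28, on both sides of 0. The means were -0.18 ± 0.21 for Cdh5 and -0.04 ± 0.27 for Esam, and the adjusted p by limma was 0.577 and 0.917. Within arrays, Esam minus Cldn5 was 0.92, 1.14 and 1.20, so the ratios of these tight junction genes were apart on each array by a mean of 1.08 ± 0.15. Cdh5 minus Cldn5 was likewise positive on each, at 0.95 ± 0.49.

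Plvap (84094) had -0.40, -0.44 and -0.44, and its arrays agreed more closely than those of any other of the 10 genes. Only 0.612% of all genes had an SD as small or smaller. The mean of -0.43 had an interval from -0.80 to -0.05, an unadjusted p of 0.0346 and an adjusted p of 0.222 by limma. That interval is wider than its own 3 values because limma draws each gene's variance towards that of all genes.

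Sox17 (20671) had -1.23, -0.67 and -1.16, which are plain ratios of 0.425, 0.630 and 0.447. Arrays 1 and 3 lay together and array 2 closer to 0, while all were on one side. The mean corresponds to a 2.03-fold difference, with an interval from -1.54 to -0.50, and the unadjusted and adjusted p by limma were 0.00603 and 0.158. Since Sox17 is also a gene of endoderm, 13 gut endoderm genes were measured beside it. Of these, 10 had negative means, as 50.2% of all genes did, with a median mean ratio of -0.20. On all arrays 6 were negative, where 22.5% of all genes were. They included Afp, the fetal plasma protein, at -1.68 ± 0.07, Ttr, the thyroxine carrier, at -1.13 ± 0.15, the claudin Cldn6 at -1.01 ± 0.14 and the liver and gut transcription factor Foxa3 at -0.79 ± 0.25. Some other endoderm genes, named after their values were seen, did not share that side on every array. Hnf4a, a liver and gut transcription factor, was positive on all arrays at 0.44 ± 0.26, while Gata4 at -0.02 ± 0.34, Epcam at -0.05 ± 0.08, Cdh1 at 0.07 ± 0.45 and Krt18 at 0.18 ± 0.45 had arrays of both signs. Their part in the Sox17 ratio was not tested.

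Ordered by mean ratio, the 10 genes formed 9 neighbouring pairs, and within arrays only 2 of these gaps exceeded their own SD. Pecam1 minus Sox17 averaged 0.43 ± 0.39 and Plvap minus Pecam1 averaged 0.17 ± 0.14. Array 2 ran against the first of these, with Sox17 at -0.67 and Pecam1 at -0.69. Cldn5 and Sox17 did not differ beyond their spread, at 0.10 ± 0.30, and from Plvap to Esam no neighbour was apart from the next. Of all 45 pairs, 25 kept 1 order on all 3 arrays. Across the 10 genes, Pearson's r was 0.56 for arrays 1 and 2, which share a dye order. It was 0.71 for arrays 1 and 3, and 0.65 for arrays 2 and 3. These describe 10 points that share arrays and dyes. Spearman's rho put the same pairs in another order, at 0.66, 0.40 and 0.64. Across all genes Pearson's r was 0.36, 0.06 and 0.02 and Spearman's rho 0.50, 0.26 and 0.21.

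As a set, the members had a median mean ratio of -0.41, and the median of all genes was -0.002. The members' medians were -0.56, -0.43 and -0.42 on arrays 1, 2 and 3, where all genes had 0.04, 0.04 and -0.06. Of the 30 values, 27 were negative. The median SD over arrays was 0.24 for the members and 0.34 for all genes, and 9 of the 10 lay under the value for all genes. In the gene fit 5 members had an unadjusted p under 0.05, all negative, namely Cldn5, Sox17, Pecam1, Plvap and Tek, where 9.69% of all genes did on that side. In the probe fit 4 did, without Tek, where 8.39% of probes did. That probe count was 1 without array 1, 2 without array 2 and 0 with array 3 turned the other way. The share over all probes, in either direction, fell as well. It was 17.5% as reported, 7% without array 1, 8.17% without array 2 and 5.89% with array 3 turned. The members were chosen with earlier results of these data known, so these counts describe them and are no test.

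**Figure D2:**
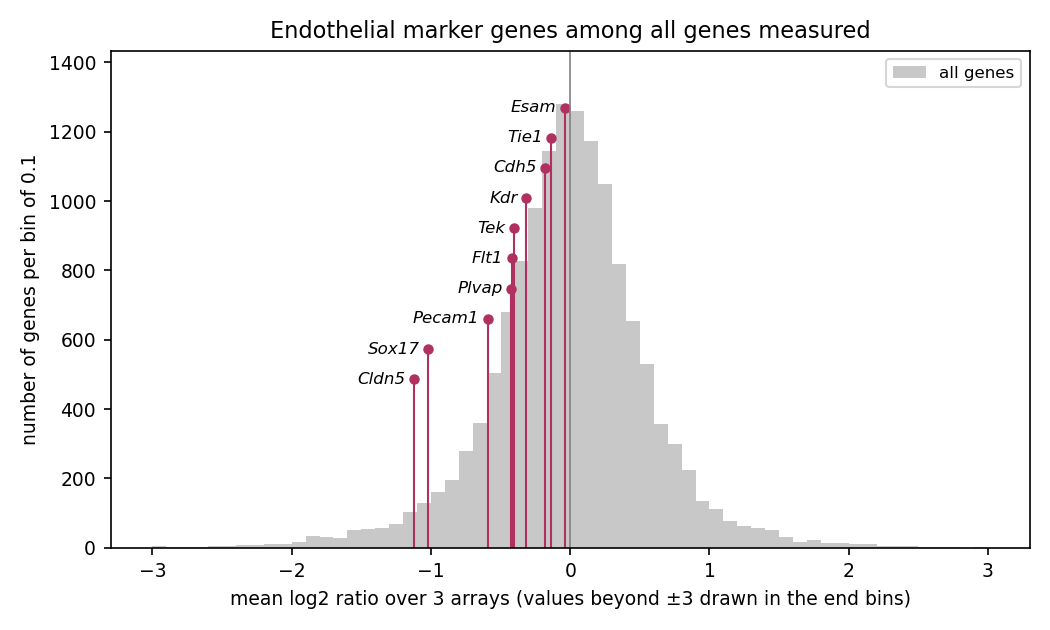
Histogram of the mean log2 ratio over 3 arrays for 14047 genes (grey bars, number of genes per bin of 0.1), with the 10 endothelial marker genes as stems whose heights only separate the names. The members run from -1.12 for Cldn5 to -0.04 for Esam, all left of 0.

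On arrays 1 and 2, which share a dye order, 8 members were negative on both, against 32.7% of all genes. On array 3, 9 were negative, against 54.5% of all genes, the exception being Tie1. Array 3 differed most from the mean of arrays 1 and 2 for Cldn5, by -0.53, and for Flt1, by 0.47. For Plvap and Tek the difference was -0.03 and 0.02. Were array 3 to run the other way, 9 means would still be negative, but they would lie between -0.35 for Flt1 and 0.15 for Esam, with Cldn5 at -0.14 and Sox17 at -0.25. The sizes above therefore rest on the direction in which array 3 was deposited, which was not settled here.

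**Figure D3:**
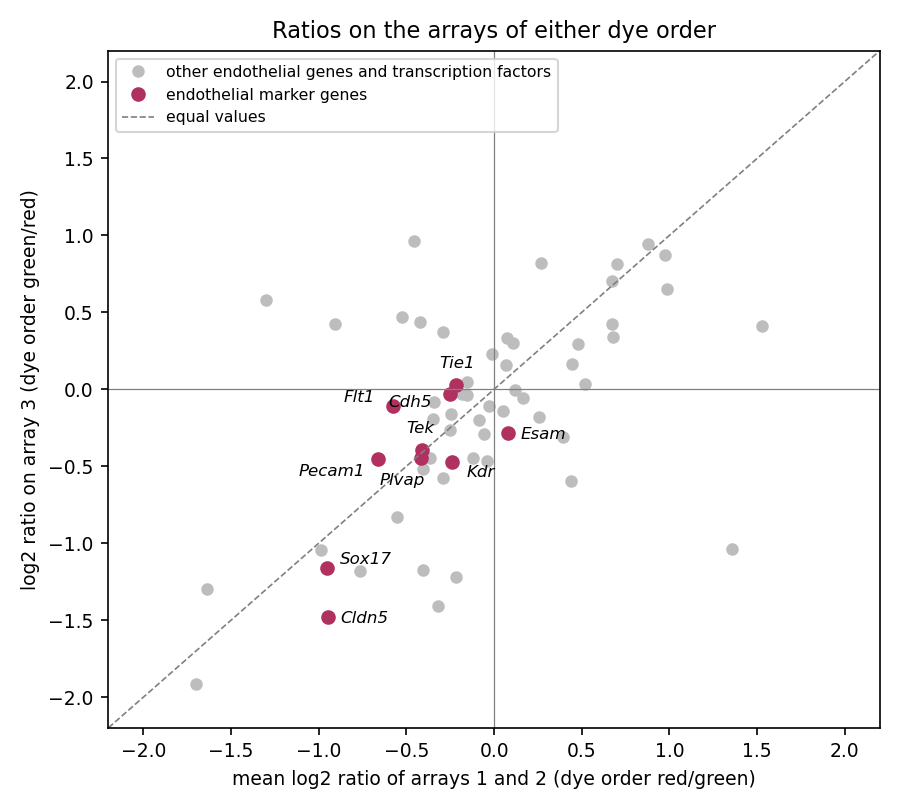
Log2 ratio on array 3 against the mean log2 ratio of arrays 1 and 2 for the 10 endothelial marker genes (red) and 52 other endothelial genes and transcription factors (grey), with the line of equal values; 4 further genes lie beyond the axes. Sox17 and Cldn5 sit far to the negative side on both axes, and the other members lie between -0.66 and 0.08 on both axes.

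Genes of the same biology outside the 10 were spread over both sides, and none of any list passed the adjusted threshold by limma. Of 35 other endothelial surface and signalling genes, 20 had negative and 15 positive means, with a median of -0.07. On all arrays 8 were negative and 6 positive. Among all 14047 genes, 50.2% had a negative mean, 22.5% were negative on all arrays and 3223 genes were positive on all. Gja4, the connexin of arterial gap junctions, had log2 ratios of -1.48, -1.80 and -1.30 with an adjusted p of 0.149, and Cd34, a sialomucin of endothelium and blood progenitors, had -1.05, -0.92 and -1.05 with the same adjusted p. The mean of Gja4, -1.53, was further from 0 than that of Cldn5, and the mean of Cd34, -1.01, was a little nearer to 0 than that of Sox17. On the opposite side were Mmrn1, a multimerin of platelets and endothelium, at 0.88 ± 0.35 and Cd93, a receptor of endothelium and myeloid cells, at 0.59 ± 0.15, both positive on all arrays.

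Of 21 transcription factor genes of endothelium, 12 had negative and 9 positive means, with a median of -0.12. Etv2, the ETS factor that starts the endothelial and blood lineages, had -1.90, -1.51 and -1.92, a mean of -1.77 ± 0.23 with an adjusted p of 0.149 by limma. Epas1, the hypoxia-inducible factor common in endothelium, had -0.90 ± 0.24. The forkhead genes Foxc1 and Foxc2, which are also active in embryonic mesenchyme, had 0.90 ± 0.04 and 0.94 ± 0.08. Both pairs were the same in sign on every array and opposite to each other.

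Ligands and co-receptors, in a list that also held the receptors Flt4 and Aplnr, stood nearer to 0. Of 11 measured, 8 had negative means and the median was -0.06. Nrp1, the neuropilin that assists Kdr, had -0.95, -1.14 and -0.25 with an adjusted p of 0.216. The ligand Vegfb had -0.48 ± 0.27 and Apln, the apelin ligand, 0.27 ± 0.41. The 2 probes of Angpt1, the main ligand of Tek, disagreed, with means of 0.34 ± 0.27 and -1.16 ± 0.50, and their average was -0.41 ± 0.31. No reading of Angpt1 is given for that reason.

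In the list of arterial, venous and Notch genes 9 of 12 means were negative, with a median of -0.29. Rbpj, the DNA-binding partner of Notch, had -0.70 ± 0.42, the endothelial receptor Notch4 had -0.39 ± 0.22, the Notch ligand Jag2 had -0.39 ± 0.26 and the Notch target Hey1 had 0.51 ± 0.22. Junction partners were split, with 7 of 12 negative and a median of -0.04. The junctional adhesion molecules Jam3 and Jam2 had -0.996 ± 0.22 and -0.65 ± 0.36, the catenin Ctnna1 had -0.58 ± 0.18 and the scaffold Tjp1 had 0.55 ± 0.24. The first 3 were negative on every array and Tjp1 positive on every array, with adjusted p from 0.157 to 0.221 by limma.

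Signal transducers of the VEGF receptors, 19 in number, had 10 negative and 9 positive means and a median of -0.02. Ptprj, a phosphatase that acts on Kdr, had 1.17 ± 0.21, the adaptor Nck1 0.69 ± 0.33, the kinase Akt1 -0.63 ± 0.18 and the kinase subunit Pik3r1 -0.96 ± 0.53. The 12 genes of hypoxia and VEGF regulation had 6 means on either side and a median of -0.01. Hif1a, the oxygen-regulated factor, had 1.09 ± 0.35, while the glucose transporter Slc2a1 had -1.18 ± 0.45, the glycolytic enzyme Pgk1 -0.61 ± 0.29 and the oxygen sensor Egln2 -0.36 ± 0.22.

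Other cell types that a dissected kidney may hold were measured by their own markers. Mural cell genes, 12 in number, had 6 means on either side and a median of -0.28. They included Pdgfb, a ligand and not a marker of these cells, at -0.77 ± 1.44. The middle means were those of Notch3 at 0.09 and Cnn1 at -0.64, so the sign of this median depends on which genes are listed. Kcnj8, a potassium channel of pericytes, had 1.37 ± 0.13 and the smooth muscle actin Acta2 0.80 ± 0.15, while Tagln and Myh11, contractile genes of smooth muscle, had -1.17 ± 0.18 and -0.71 ± 0.23. Of 11 erythroid genes 8 had negative means, with a median of -0.04, but only 2 were negative on all arrays, as 22.5% of all genes were. Klf1, a red cell transcription factor, had -1.10 ± 0.14, Epor, the erythropoietin receptor, -0.35 ± 0.28, and Alas2 of haem synthesis -0.20 ± 0.20. Tfrc had 0.24 ± 0.17, with its 2 probes at 0.56 and -0.09. The globins, named after their values were seen, lay near 0 with arrays of both signs. Hbb-y had 0.01 ± 0.26, Hba-x -0.02 ± 0.28, Hba-a1 -0.03 ± 0.36 and Hbb-bh1 -0.04 ± 0.45.

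Leukocyte and macrophage genes lay mostly on the opposite side to the endothelial markers, with 9 of 11 means positive and a median of 0.41. On all arrays 5 were positive, where 3223 of all 14047 genes were. Tyrobp, an adaptor of myeloid receptors, had 0.70 ± 0.17, Lyz2, the macrophage lysozyme, 0.81 ± 0.27, Fcer1g 0.86 ± 0.42 and Adgre1, the F4/80 antigen, 0.95 ± 0.55. Other genes of this list, named after their values were seen, did not share that side on every array. Laptm5 was negative on all arrays at -0.44 ± 0.46. Spi1 at -0.19 ± 0.38, Ptprc at 0.09 ± 0.26, Cd68 at 0.03 ± 0.85, Mrc1 at 0.15 ± 0.15 and Cx3cr1 at 0.45 ± 1.66 had arrays of both signs. Platelet genes, which bear on Pecam1 and Esam, had 5 of 6 means positive and a median of 0.19. Only 1 of them was positive on all arrays and 0 were negative on all, so most had arrays of both signs. Ppbp had 0.24 ± 0.13, Itga2b 0.33 ± 0.49, Gp9 0.42 ± 0.82 and Treml1 -0.24 ± 0.41. Of 16 genes of metanephric mesenchyme and ureteric bud, 11 had positive means, with a median of 0.22. On all arrays 8 were positive, where 3223 of all 14047 genes were. Wt1 had 1.75 ± 0.04, Calb1 1.16 ± 0.10, Wnt4 1.03 ± 0.06 and Cited1 0.86 ± 0.29. The 3 that were negative on all arrays, named after their values were seen, were Ret at -0.43 ± 0.11, Osr1 at -0.36 ± 0.08 and Hoxa11 at -0.36 ± 0.10. The part of these cell types in the ratios of the endothelial genes was not tested.

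**Figure D4:**
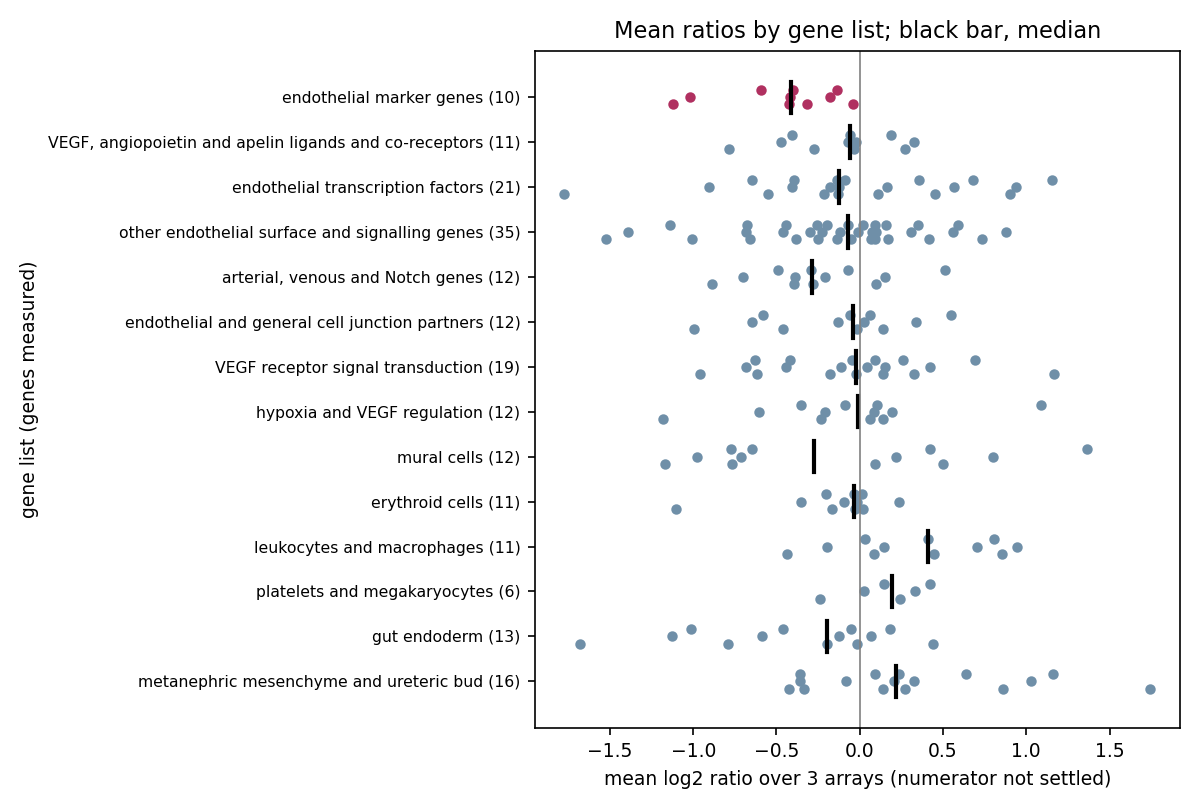
Mean log2 ratio over 3 arrays for each gene (points) of the endothelial marker genes (red, top) and of 13 other lists (blue), with the number of genes measured beside each name and the list's median as a black bar. The medians run from -0.41 for the endothelial marker genes to 0.41 for leukocytes and macrophages.

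The genes whose ratios were most like the members' medians on the 3 arrays, by Euclidean distance over 3 points, were Cbx5 at a distance of 0.035, 2610016E04Rik at 0.043, Mrpl3 at 0.045, C030002A05Rik at 0.046 and Scamp3 at 0.046. The nearest members were Tek at 0.15 and Plvap at 0.16, and the furthest were Sox17 at 1.03 and Cldn5 at 1.24. As many as 65 genes outside the list lay as near as Tek or nearer.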

How the data were processed

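Per the labels, the authors quantified the images in Imagene 5.5 and used R for print-tip lowess followed by normalization between arrays. Each point of the lowess fit drew on 20% of the data, and 10 replaced lower values of the control channel. What they deposited are log2 ratios, and 98.3% of the ratios they stand for had 3 decimals within 2e-06. No genome build is given for the array probes in the sources used here.

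Of 22702 rows, 21918 were gene probes, and control spots stayed out. Platform annotation gave 16656 of them 1 symbol, and Entrez identifiers, which matched for 15970, changed 0 symbols. Probes of 1 symbol were averaged per array. Values were present for 21354, 19883 and 21396 gene probes on arrays 1, 2 and 3, and arrays, at 3, limit the precision. A two-sided test of the mean ratio against 0 used limma 3.58.1 (lmFit, eBayes) under R 4.3.3, tried first on simulated data, and p-values were adjusted by Benjamini-Hochberg over all features. Figures used Matplotlib 3.10.9 in Python 3.11.15. Promoter motifs were matched exactly on both strands.

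Named genes were the 10 members, up to 4 genes of each of 13 lists by smallest unadjusted p, and the 5 genes nearest in pattern. The members and lists were chosen with earlier results of these data known. Alternatives were centring on the median, equal median absolute deviations, array 3 turned, a dye term, values on at least 2 arrays, robust and unmoderated variances, array weights, limiting log2 ratios to 4 in size, other ways of joining probes, and each array left out.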

Additional observations from a re-analysis of the deposited data

How the results depend on the processing

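By limma 0 probes and 0 member probes passed the adjusted threshold under each alternative run, of 19660 probes tested or, with values on at least 2 arrays, of 21340. As reported, 3432 probes and 4 member probes had an unadjusted p under 0.05. With array 3 turned the other way the member count at an unadjusted p was 0, of 1158 probes in all, and the members' median ratio was -0.15 in place of -0.41; with an array left out that count ran from 1, without array 1, to 4, without array 3, and was 2 without array 2. The other alternatives gave 3 to 6, with 6 under array weights. Of all probes, 17.5% had an unadjusted p under 0.05 by limma as reported. That share was 7% without array 1, 8.17% without array 2, 18.8% without array 3 and 5.89% with array 3 turned. It was 25.1% with array weights and 15.4% to 18.5% under the remaining alternatives. The members' median kept its sign throughout and ran from -0.38 to -0.41 with an array left out. Of 140 alternative values of single members, 137 kept their sign and stayed short of the adjusted threshold. Robust and unmoderated variances, values on at least 2 arrays and the limit of 4 could not move a member's ratio. Nor could other ways of joining probes, since each member had 1 probe. Signs under these settings, and that of the members' median, were thus fixed in advance and are no sign of robustness. Tie1 changed sign without array 1, and its values with an array left out ran from -0.28, without array 2, to 0.0883; array weights gave -0.34. Esam changed sign with array 3 turned, at 0.15, and without array 3, and its values with an array left out ran from -0.18, without array 2, to 0.0809. The cause of these changes was not tested, and fewer arrays enter when one is left out. Each array holds the whole comparison, so the test of its ratios against 0 already pairs the 2 channels. No further pairing was possible because there are no groups that share replicate numbers. Intensities were not used here, so signal over background sets no stated limit.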

Other observations

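Some genes of the vascular lists that the naming rule did not take are given here, chosen after their values were seen. Tal1, a transcription factor of blood and endothelial precursors, had log2 ratios of -3.73, 0.10 and 2.41 on arrays 1, 2 and 3, and Eng, the endothelial co-receptor endoglin, had -1.34, 0.76 and -0.58. Both thus disagreed widely between arrays, as did Prox1, Vcam1 and Icam1, with SDs of 2.78, 2.77 and 2.19. Dll4, the Notch ligand of arterial endothelium, had -0.74, -1.07 and 0.35, with both arrays of the red/green dye order negative and the third positive. Vwf, the von Willebrand factor gene of endothelium and platelets, was negative on each, at -0.70, -0.10 and -1.17. Erg, the ETS factor that keeps endothelial identity, had -0.10, -0.21 and 0.05, and Emcn, the sialomucin endomucin, had 0.01, 0.32 and -0.06, both near equal signal.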
